A study of Mus musculus with 31 samples.

Results

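The immediate early genes Egr1, Egr2, Fos, Fosl2, Jun, Junb, Jund, Atf3, Ier2 and Ier3 were followed in mouse macrophages after contact with bacteria or bacterial lipid. Members were chosen by name: a spot (probe) of the array belongs to the group when its annotated symbol is exactly 1 of these 10. By this rule 10 of 13872 probes were found, for 9 genes, Fos having 2, and no probe carried the symbol Atf3, which was not analysed here. A probe entered the tests when no group lacked more than 1 of its 4 mouse values, which held for 8 member probes (8 genes) and for 7325 probes in all. The probe of Ier3 and probe 4485 of Fos did not, and are given by their values alone.

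Immediate early genes are switched on by signals that act on factors already present in the cell, without new protein synthesis, and many are shut off again soon after. Fos, Fosl2, Jun, Junb and Jund encode leucine zipper proteins that pair to form the transcription factor AP-1, in which Jun is a strong activator and Junb and Jund are often weaker ones. Egr1 and Egr2 encode zinc finger factors that bind GC-rich sites, Ier2 a small nuclear protein, and Ier3 a stress-responsive regulator of survival. In macrophages, Toll-like receptors reach these genes through MAP kinases and NF-kB, partly through the adaptor MyD88 and partly through the adaptor TRIF, which serves the LPS receptor TLR4 without MyD88.

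Marrow of wild-type C57BL/6J and of MyD88-deficient (MyD88-/-) mice, aged 6 to 8 weeks, was grown into macrophages over 8 days in medium with 15% L929-conditioned medium, which supplies the growth factor CSF-1. Cells were given re-purified LPS at 10 ng/mL or live log-phase E. coli at 1 bacterium per macrophage, and RNA was taken after 2 hours. Each of the 4 combinations of genotype and stimulus has 4 mice, and all are expressed against cells of the same mouse kept in medium alone (mock). Each of the 31 arrays set a stimulated against a mock sample, and the dyes were exchanged on a second array for every mouse and stimulus but LPS-treated MyD88-/- mouse 4, which has 1 array. A value is therefore a log2 ratio of stimulated over mock, a direction that the array titles make likely and no label states; it gives no level of a message, and neither levels of different genes nor mock levels of the genotypes can be compared. Whether 1 mock RNA of a mouse served both stimuli is not stated either, so the stimuli may share their mock samples.

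An array held between 5564 and 10497 values, and the 15 dye pairs correlated across probes with r between 0.256 and 0.71. A group's ratio rests on at most 4 mice, and over all tested probes the wild-type LPS ratio had a median standard error of 0.203. Myd88 itself, the disrupted gene, had ratios above 0 in all 16 mouse-level values, which cannot check the genotype because mock cells of the same genotype are the denominator. In MyD88-/- LPS cells they were 1.09, 1.99, 0.87 and 4.70, the last from the mouse with a single array. The macrophage identity of the cultures cannot be checked from ratios, and markers of other cell types are given as changes only.

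The data first show which members answered a stimulus. Egr2, Junb and Ier2 rose and Jun fell in all 4 groups, Egr1 rose in wild-type cells given either stimulus, and Fos (probe 1202) fell in MyD88-/- cells given E. coli. The called responses ran from a mean log2 ratio of 5.02 for Egr2, about 32.5-fold over mock, to -2.57 for Jun. Fosl2 and Jund were not called in any of the 4 responses. A call is an adjusted p under 0.05 in limma's moderated test, adjusted by Benjamini and Hochberg over all 7325 probes, and ± after a fitted value is its standard error.

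In wild-type cells given LPS, 4 of the 8 tested members rose, where 7.99% of all tested probes did, and 1 fell, where 9.04% did (17% in either direction). In wild-type cells given E. coli the counts were again 4 and 1, against 9.43% and 11.8% of all probes (21.2% together). In MyD88-/- cells 3 rose and 1 fell with LPS, against 5.28% and 4.7% (9.98% together), and 3 rose and 2 fell with E. coli, against 6.35% and 4.42% (10.8% together). The median of the 8 members was 0.63 for wild-type LPS, 0.29 for MyD88-/- LPS, 0.94 for wild-type E. coli and -0.17 for MyD88-/- E. coli, where the medians of all probes lay between -0.06 and -0.05.

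**Figure D1:**
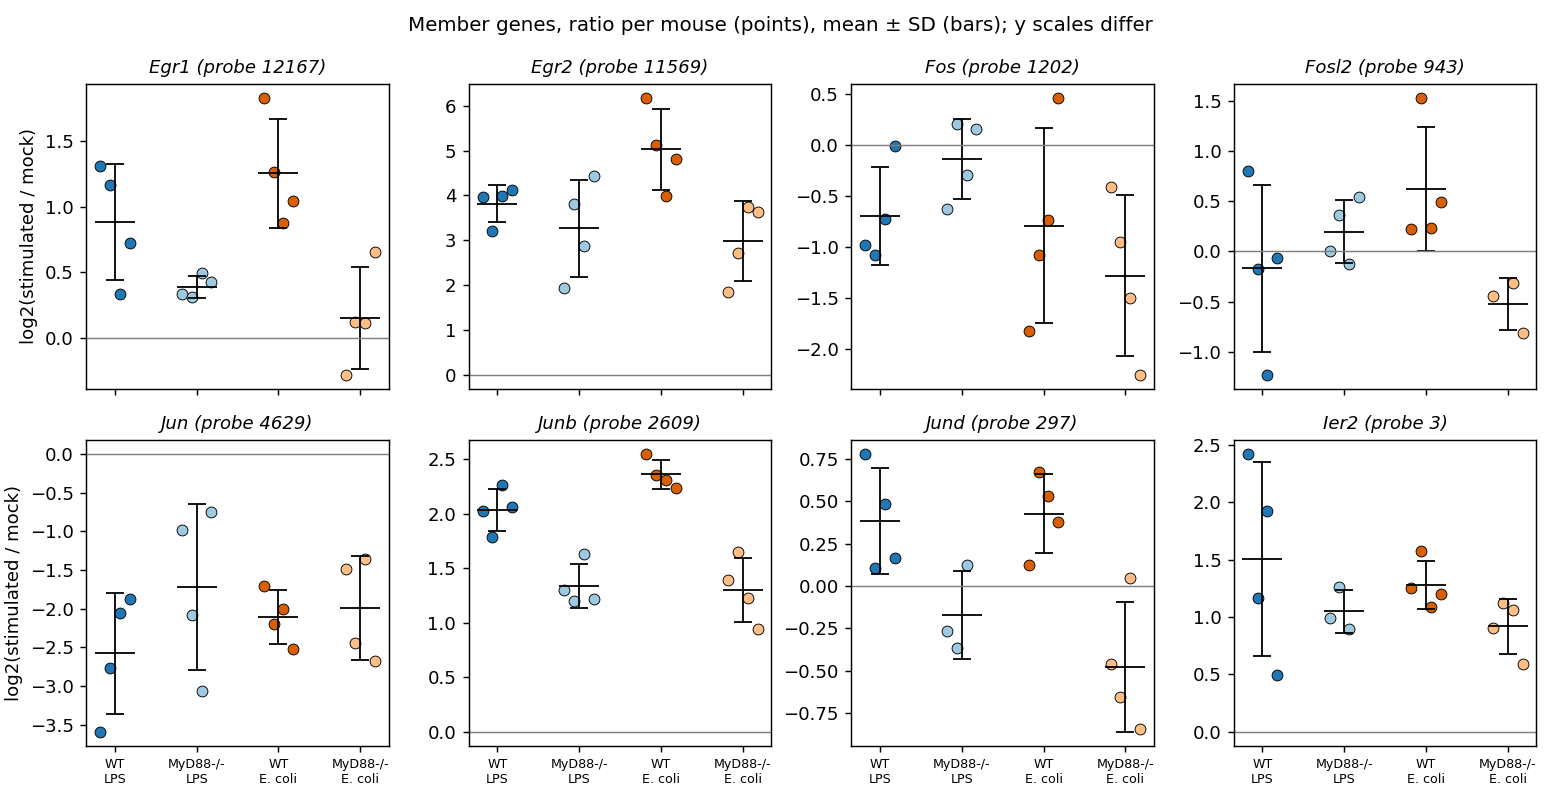
Each panel shows 1 tested member, with the log2 ratio of stimulated over mock on the y axis (scales differ), the 4 groups on the x axis, a point for each mouse, and bars for the mean ± SD. All points of Egr2, Junb and Ier2 lie above 0 and all points of Jun below it, and the points of Junb in both wild-type groups lie above those of the MyD88-/- groups.

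Egr2 had the largest response of the members in every group. In wild-type LPS cells the mouse values were 3.96, 3.21, 3.99 and 4.11, and in wild-type E. coli cells 6.18, 5.12, 3.99 and 4.80. Without MyD88 they were 1.95, 3.80, 2.89 and 4.43 with LPS and 1.86, 2.71, 3.74 and 3.63 with E. coli. All 16 values were far above 0, and only for E. coli did the genotypes not overlap. The fit gave 3.82 ± 0.39 for wild-type LPS (adjusted p = 5.39e-06), 3.27 for MyD88-/- LPS (adjusted p = 3.7e-05), 5.02 for wild-type E. coli (adjusted p = 2.25e-07) and 2.98 for MyD88-/- E. coli (adjusted p = 8.15e-05). Among the 7325 probes Egr2 stood at rank 18, 26, 19 and 37 from the top in these groups, in the same order.

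Egr1, the relative of Egr2 that serves as a general marker of MAP kinase signalling, moved much less. Its values were 1.31, 1.17, 0.33 and 0.72 in wild-type LPS, and 1.83, 1.26, 0.88 and 1.04 in wild-type E. coli cells. The MyD88-/- values were 0.34, 0.31, 0.49 and 0.42 with LPS, and -0.29, 0.12, 0.11 and 0.66 with E. coli. Every wild-type value was above 0, as were all of the MyD88-/- LPS values, which lay close together. The response was 0.88 ± 0.18 for wild-type LPS (adjusted p = 0.00327) and 1.25 ± 0.18 for wild-type E. coli (adjusted p = 0.000139), and it was not called in MyD88-/- cells, at 0.39 (adjusted p = 0.229) and 0.15 (adjusted p = 0.713). Its LPS call in wild-type cells was lost on swapped arrays alone (adjusted p = 0.119) and with that group alone in the fit (adjusted p = 0.0568).

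Junb, an AP-1 subunit often induced together with NF-kB targets, had the smallest standard error of the tested members. In wild-type LPS cells they were 2.02, 1.79, 2.27 and 2.06, and in MyD88-/- LPS cells 1.30, 1.20, 1.63 and 1.22. With E. coli they were 2.55, 2.36, 2.30 and 2.23 in wild-type and 1.39, 1.65, 1.22 and 0.94 in MyD88-/- cells. The genotypes did not overlap for either stimulus. The 4 responses were 2.03, 1.34, 2.36 and 1.30, each ± 0.13, with adjusted p between 4.39e-09 and 3.82e-06, which is a rise of about 4.09-fold and 5.13-fold in wild-type and 2.53-fold and 2.47-fold in MyD88-/- cells for LPS and E. coli. The order of the groups was wild-type E. coli, wild-type LPS, MyD88-/- LPS and MyD88-/- E. coli, and the neighbours overlapped except between wild-type and MyD88-/- LPS.

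Ier2, induced by growth factors and stress in many cells, rose in all groups. Its values were 2.42, 1.17, 1.92 and 0.50 in wild-type LPS cells and 1.26, 1.58, 1.08 and 1.20 in wild-type E. coli cells. In MyD88-/- cells they were 0.99, 1.26 and 0.90 with LPS, with no value for mouse 4, and 0.90, 1.12, 1.06 and 0.59 with E. coli. All 15 were above 0 and the genotypes overlapped. The responses were 1.50 (adjusted p = 0.000326), 1.28 (adjusted p = 0.00104), 1.05 (adjusted p = 0.0194) and 0.92 (adjusted p = 0.0168), in the order given. The calls in MyD88-/- cells were lost on leaving out mouse 1, 2 or 3 while the response stayed near its size. With LPS it was then 0.94 to 1.12 (adjusted p between 0.064 and 0.11), and with E. coli 0.85 to 0.92 (0.0521 to 0.087).

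Jun, the founding AP-1 subunit, went the other way. Its values were -3.59, -2.77, -2.06 and -1.88 in wild-type LPS cells, and -1.70, -2.20, -2.00 and -2.52 in wild-type E. coli cells. The MyD88-/- mice gave -0.98, -2.09, -3.07 and -0.75 with LPS and -1.48, -2.44, -1.36 and -2.68 with E. coli. All 16 were below 0 and all groups overlapped each other. Jun was at -2.57 ± 0.35 for wild-type LPS (adjusted p = 9e-05), -2.11 for wild-type E. coli (adjusted p = 0.00046), -1.72 for MyD88-/- LPS (adjusted p = 0.00414) and -1.99 for MyD88-/- E. coli (adjusted p = 0.00118), and stood between rank 11 and rank 30 from the bottom. The dye-swapped array of wild-type E. coli mouse 3 held the lowest value the table allows, log2 of 0.01, and was left out as missing; with it kept the wild-type E. coli response was -2.69.

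Because Egr2 and Junb rose and Jun fell in every group, the 250 bases before their annotated starts are shown, from RefSeq's GRCm38.p6. Promoters of 7 of the 9 genes with a probe were searched. Ier2, which also rose in every group, and Egr1, which rose in wild-type cells, were not among them. Egr2 has 5 starts there, and the one shown is chr10:67537619-67537868 on the plus strand; Junb is chr8:84978749-84978998 and Jun chr4:95052223-95052472, both on the minus strand. Sequences run 5′ to 3′ toward the start, and capitals mark a match to a searched motif on either strand.

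Egr2: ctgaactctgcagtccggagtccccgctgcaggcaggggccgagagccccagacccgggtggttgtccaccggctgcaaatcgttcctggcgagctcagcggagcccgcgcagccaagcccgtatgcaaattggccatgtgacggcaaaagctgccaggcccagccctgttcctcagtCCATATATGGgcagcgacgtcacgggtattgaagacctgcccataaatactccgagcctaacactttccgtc

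Junb: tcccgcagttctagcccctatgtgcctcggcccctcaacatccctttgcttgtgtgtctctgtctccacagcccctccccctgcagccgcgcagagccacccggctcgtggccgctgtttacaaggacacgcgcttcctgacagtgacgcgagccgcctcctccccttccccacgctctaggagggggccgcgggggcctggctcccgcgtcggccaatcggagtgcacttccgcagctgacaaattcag

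Jun: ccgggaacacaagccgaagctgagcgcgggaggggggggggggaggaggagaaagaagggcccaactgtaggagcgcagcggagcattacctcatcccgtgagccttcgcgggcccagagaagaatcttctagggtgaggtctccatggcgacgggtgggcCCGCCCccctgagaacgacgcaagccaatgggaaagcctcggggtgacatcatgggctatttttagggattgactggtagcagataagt

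All motifs were searched on both strands. The capitals in Egr2 are a CArG box, the site of serum response factor, 72 to 63 bases before the start, and those in Jun are a GC box (GGGCGG, read on the opposite strand) 89 to 84 bases before the start. Of the 5 windows of Egr2, 4 held a CArG box, 3 of them the same one since these windows overlap, and the CArG box occurred in 1.47% of the 32851 upstream windows searched, all of this length. The GC box occurred in 32.7%. No AP-1 site (TGANTCA, in 6.75% of windows), CRE (TGACGTCA, 1.55%) or EGR site (GCGNGGGCG, 4.7%) was matched in these 3 windows, and no NF-kB site (7.25%). Only exact matches were counted. Close variants, such as the letters tgacatca in the window of Jun, were not searched, so a lack of matches does not show a lack of sites. Another window of Egr2, which starts at base 67535249 and has no CArG box, held 4 GC boxes and 2 overlapping NF-kB matches, and the windows of Fos, Fosl2 and Ier3 held NF-kB matches too. GC and EGR patterns can overlap, as they do in the window of Fosl2. These matches describe the letters and do not show binding.

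Fos, the partner of Jun in the classical AP-1 dimer, gave different pictures by its probes. Probe 1202 had -0.98, -1.08, -0.73 and -0.01 in wild-type LPS and -1.83, -1.07, -0.73 and 0.47 in wild-type E. coli cells. Without MyD88 it had -0.62, 0.21, -0.29 and 0.16 with LPS and -0.41, -0.96, -1.50 and -2.26 with E. coli. The groups overlapped, and all 4 values were below 0 in wild-type LPS and in MyD88-/- E. coli cells. Only the MyD88-/- E. coli response was called by limma, at -1.28 ± 0.32 (adjusted p = 0.0162), and that call ended without MyD88-/- E. coli mouse 3 (adjusted p = 0.0758) or mouse 4 (-0.96, adjusted p = 0.12). On swapped arrays alone the MyD88-/- E. coli call was lost as well, at -1.34 (adjusted p = 0.0589). The wild-type E. coli response, -0.79 (adjusted p = 0.0976), passed without wild-type E. coli mouse 4, at -1.21 (adjusted p = 0.0161). It also passed with all arrays in 1 limma fit with a term for the dye orientation (adjusted p = 0.0402).

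Probe 4485 of Fos, with values on 13 of 31 arrays, was above 0 in all 4 wild-type LPS mice, at 1.96, 0.77, 1.11 and 0.57, where probe 1202 was below 0. In the other groups it had 1.47, -1.45 and -0.81 (MyD88-/- LPS), -2.33, -0.29 and 1.77 (wild-type E. coli) and -0.18 and -2.57 (MyD88-/- E. coli). In wild-type LPS mice 1 to 3 this probe had a value on the unswapped array alone, and in mouse 4 it was 1.41 unswapped and -0.26 swapped, so its sign there rests on 1 dye orientation. The mouse values of the probes of Fos disagree in sign for wild-type LPS, and the direction of the Fos message in that group cannot be told from these arrays. Probe 4485 was not tested.

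Fosl2 is a Fos relative that lacks the strong activation domain of Fos, and Jund is the Jun relative that resting cells usually express. Neither had a called response in the fit on mouse-level ratios. Fosl2 had 0.80, -0.18, -1.23 and -0.06 in wild-type LPS and 0.22, 1.53, 0.24 and 0.49 in wild-type E. coli cells. MyD88-/- mice had 0.00, 0.36, -0.13 and 0.54 with LPS and -0.44, -0.31 and -0.81 with E. coli, with no value for mouse 2. With E. coli all wild-type values were above 0 and all MyD88-/- values below it. The largest fitted response, 0.62 in wild-type E. coli cells, was not called (adjusted p = 0.123), and with the value at the floor of the dye-swapped array of mouse 1 kept it was -0.24.

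Jund had 0.78, 0.11, 0.48 and 0.16 in wild-type LPS and 0.12, 0.67, 0.53 and 0.38 in wild-type E. coli cells, all above 0. In MyD88-/- cells it had -0.27, -0.37 and 0.12 with LPS and -0.46, -0.66, 0.05 and -0.84 with E. coli, mostly below 0. No response was called, with 0.43 for wild-type E. coli (adjusted p = 0.0754) and -0.48 for MyD88-/- E. coli (adjusted p = 0.0775), and the latter passed without MyD88-/- E. coli mouse 3 (-0.65, adjusted p = 0.0289). Ier3 had values on 11 arrays and in 9 of 16 mouse-level ratios, running from -4.02 (wild-type LPS mouse 2) to 2.70 (wild-type LPS mouse 4), so its 3 wild-type LPS values already span both signs.

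The dye orientation of an array moved with the value of some members. In all 12 pairs of Jund the unswapped array was the higher one, by 1.19 ± 1.07 (mean and SD of the difference). The unswapped array was higher in 8 of 10 pairs of Fosl2 (0.84 ± 1.40) and 9 of 11 of Ier2 (0.53 ± 0.91), and it was lower in all but 1 of 10 pairs of Jun (-1.05 ± 0.94). Junb, Egr1, Egr2 and Fos (probe 1202) showed mean differences between -0.14 and 0.16, and the median of this mean over all tested probes was -0.04. A mouse with a value in 1 orientation alone is not balanced. This was so for 6 mouse-level ratios of Jun and 5 of Fosl2, among them wild-type E. coli mouse 1 (unswapped) and MyD88-/- E. coli mouse 1 (swapped) of Fosl2. For Jund these were wild-type LPS mouse 1 and MyD88-/- E. coli mice 2 (unswapped) and 3 (swapped), and for Ier2 they were wild-type LPS mice 1 and 3 and, of the mice given E. coli, wild-type mouse 4 and MyD88-/- mouse 2. The arrays of Jund in MyD88-/- E. coli mouse 4 were -3.02 swapped and 1.33 unswapped, so its mean of -0.84 lies between values of opposite sign. With all arrays in 1 limma fit with a term for the dye orientation, no response call of Jund, Jun, Fosl2 or Ier2 was gained or lost. Fos (probe 1202) gained a call there in wild-type E. coli cells, at -0.79 (adjusted p = 0.0402). The E. coli genotype differences of Egr1 and Egr2 gained calls there too. In that fit Jun stood between -2.58 and -1.96 and Ier2 between 0.84 and 1.34 over the 4 responses, and the E. coli genotype difference was -0.95 for Jund (adjusted p = 0.19) and -1.08 for Fosl2 (adjusted p = 0.342). On unswapped arrays alone Jund was called in wild-type E. coli cells, at 0.95 (adjusted p = 0.0157), and stood at 0.25 in MyD88-/- E. coli cells; on swapped arrays alone it stood at -0.09 and was called at -1.32 (adjusted p = 0.0456).

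**Figure D2:**
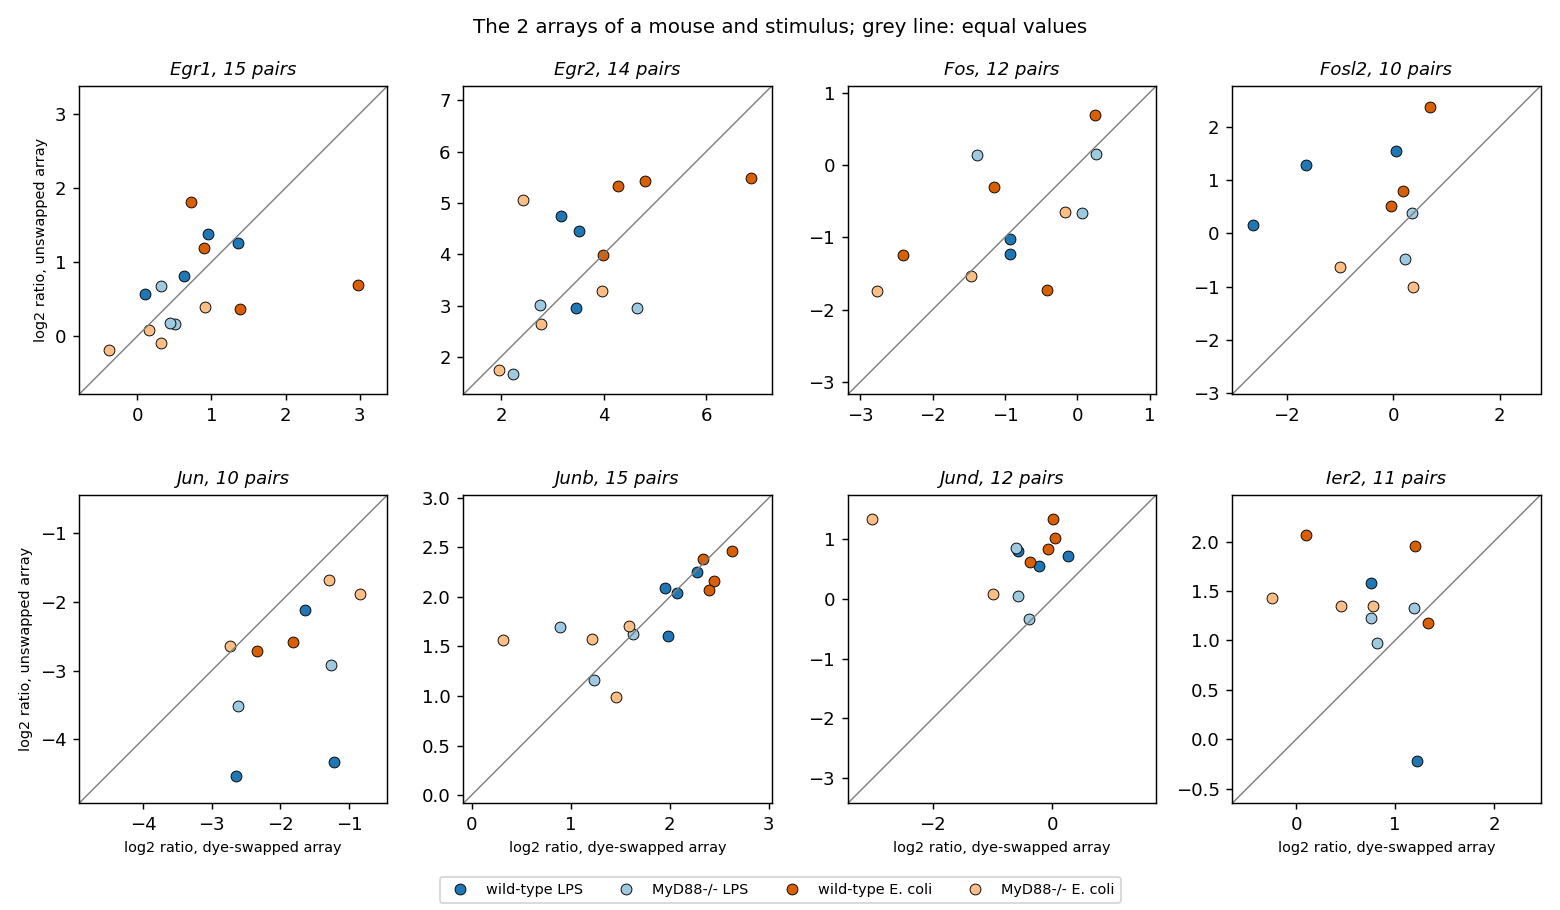
For each tested member, each point is 1 mouse and stimulus, with the log2 ratio of the dye-swapped array on the x axis and of the unswapped array on the y axis, coloured by group; the grey line marks equal values. Every point of Jund lies above the line and all but 1 of 10 points of Jun below it, while the points of Junb, with a mean difference of 0.06, lie on both sides.

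The comparison of genotypes asks how far the response of each member differed without MyD88. With E. coli, Junb was lower in MyD88-/- cells by limma, with a difference of -1.06 ± 0.18 (n = 4 mice per genotype, adjusted p = 0.00745), the 1 call among 8 members, where 0.751% of all probes were called, 0.546% lower and 0.205% higher. The mouse values of 5 of the 8 members did not overlap between genotypes, all 5 lower in MyD88-/- cells, where 9.08% of all probes did not overlap, 4.3% lower and 4.78% higher. The Junb call was lost on unswapped arrays alone (-0.81, adjusted p = 0.148), with arrays centred and scaled (-0.89, adjusted p = 0.0706) and with only its groups in the fit (adjusted p = 0.0863). The members without overlap were Egr1, Egr2, Fosl2, Junb and Jund. Fosl2 had only 3 MyD88-/- values, and fewer values overlap less readily. Its wild-type mouse 1 lacked the swapped array, which lay at the floor, and with that value kept the genotypes would overlap. For Jund the nearest values were 0.12 (wild-type mouse 1) and 0.05 (MyD88-/- mouse 3, from a swapped array alone). The unswapped array was the higher one in all pairs of Jund, so its lack of overlap is not balanced for dye orientation.

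Egr2 differed by -2.04 ± 0.56 for E. coli (adjusted p = 0.109), Egr1 by -1.11 ± 0.26 (adjusted p = 0.063), Fosl2 by -1.14 ± 0.41 (adjusted p = 0.238) and Jund by -0.90 ± 0.23 (adjusted p = 0.0866). None of these passed over all probes in the fit on mouse-level ratios. There 5 of 8 members had an unadjusted p under 0.05, as had 974 of 7325 probes. Egr1 passed without MyD88-/- E. coli mouse 4 (-1.27, adjusted p = 0.0402) and Jund without MyD88-/- E. coli mouse 3 (-1.08, adjusted p = 0.0485). Egr1 also passed with values in all 4 mice required (adjusted p = 0.0377). With all arrays and a dye term in limma, Egr2 (-2.04, adjusted p = 0.0238) and Egr1 (-1.11, adjusted p = 0.0307) were called. Fosl2 and Jund were not called in that fit. On arrays of 1 dye orientation alone neither Egr2 nor Egr1 was called (adjusted p between 0.164 and 0.348). Jun, at 0.12 ± 0.50, Ier2, at -0.36 ± 0.32, and Fos, at -0.49 ± 0.45, were not called.

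For LPS no member was called by limma, where 0.287% of all probes were (0.218% lower and 0.0683% higher), and 2 of 8 had an unadjusted p under 0.05, as had 653 of 7325 probes. Junb came closest, at -0.70 ± 0.18 (adjusted p = 0.17), and it alone did not overlap, lower in MyD88-/- cells, against 6.68% of all probes without overlap (3.28% lower and 3.4% higher). Egr2 differed by -0.55 ± 0.56 (adjusted p = 0.802), Egr1 by -0.49 ± 0.26 (adjusted p = 0.624) and Jun by 0.85 ± 0.50 (adjusted p = 0.66).

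**Figure D3:**
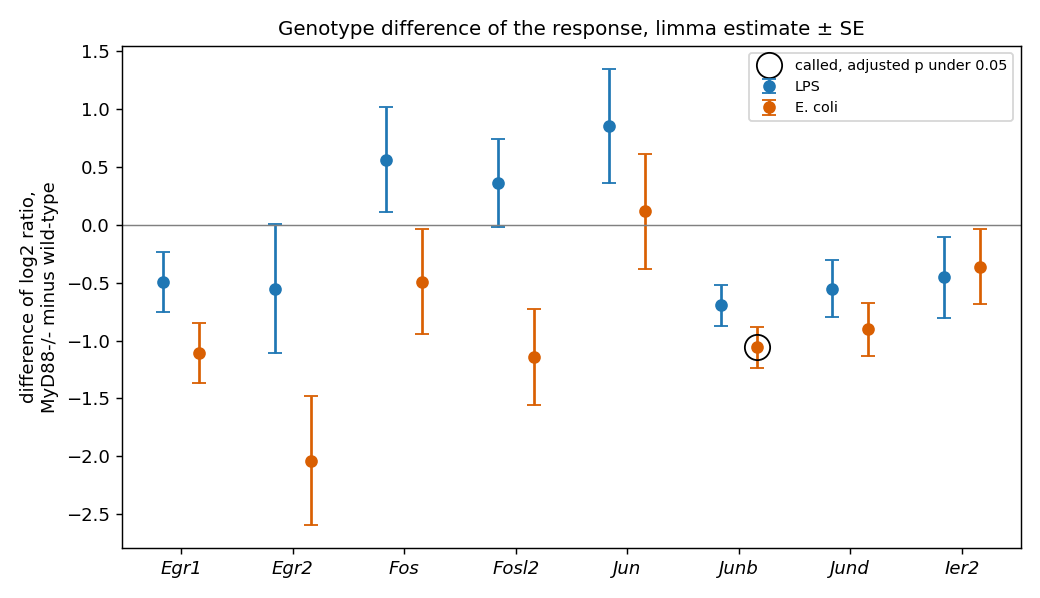
The y axis gives the difference of the log2 ratio, MyD88-/- minus wild-type, for each tested member on the x axis, for LPS (blue) and E. coli (orange), as limma estimates ± SE, with a ring around a called value. Junb for E. coli, at -1.06, carries the ring, and Egr2 for E. coli has the lowest value, -2.04, with a wider error of 0.56.

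The comparison of stimuli asks whether live bacteria and LPS differed for these genes. In wild-type cells no member was called by limma (1 of 8 with an unadjusted p under 0.05), as for 0% of all probes (297 at an unadjusted p under 0.05), and no member's mouse values were free of overlap, against 2.65% of all probes (1.61% higher and 1.04% lower with E. coli). Egr2 was higher with E. coli by 1.21 ± 0.56 and Fosl2 by 0.79 ± 0.38 (adjusted p = 0.999 for both). In MyD88-/- cells no member was called either (1 of 8 with an unadjusted p under 0.05, and 177 probes in all), and Fosl2 alone did not overlap, lower with E. coli, against 2.32% of all probes (0.983% lower and 1.34% higher). Fos differed there by -1.15 ± 0.45 and Junb by -0.03 ± 0.18. The genotype difference for E. coli minus that for LPS was -1.49 ± 0.79 for Egr2 and -1.51 ± 0.56 for Fosl2, but no such interaction was called by limma (1 of 8 members and 219 of 7325 probes with an unadjusted p under 0.05, adjusted p = 1 when rounded for all 8).

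Relatives of the members in the AP-1, CREB and Egr families, which were listed with earlier results of these data known, moved in both directions. Of 24 genes listed 13 were tested. With LPS 1 rose and 3 fell in wild-type and 3 rose and 3 fell in MyD88-/- cells. With E. coli 3 rose and 2 fell in wild-type and 4 rose and 4 fell in MyD88-/- cells. Of all tested probes 17%, 9.98%, 21.2% and 10.8% were called in either direction, in the same order of groups. Jdp2, a zipper protein that pairs with Jun and mostly represses AP-1 sites, rose in all groups, by 2.30, 2.30, 2.62 and 2.12 (adjusted p between 1.05e-08 and 2.11e-07 by limma), for LPS in wild-type and MyD88-/- cells and then for E. coli in both. Fosl1, the Fos relative also called Fra-1, was called with E. coli, at 1.98 in wild-type and 1.51 in MyD88-/- cells (adjusted p = 0.00323 and 0.0297). Atf4, the factor of the integrated stress response, fell in all groups, to -0.99, -0.53, -1.04 and -0.55 (adjusted p between 0.00013 and 0.0362). Egr3 was called in wild-type E. coli cells alone, at 1.39 (adjusted p = 0.0121), and its genotype difference was not called (-0.75, adjusted p = 0.571). Of the Egr corepressors, Nab2 fell in wild-type LPS cells, to -0.77 (adjusted p = 0.00962), in MyD88-/- LPS cells, to -0.70, and in wild-type E. coli cells, to -0.57. Nab1 rose by limma in MyD88-/- cells with LPS, by 1.08 (adjusted p = 0.00663), and with E. coli, by 0.78 (adjusted p = 0.0453). Mafg, a small Maf protein, fell in MyD88-/- cells with LPS, to -1.09, and with E. coli (adjusted p = 0.00749), and Crem, a cAMP-responsive factor, to -1.50 in MyD88-/- E. coli cells. No relative was called between genotypes.

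**Figure D4:**
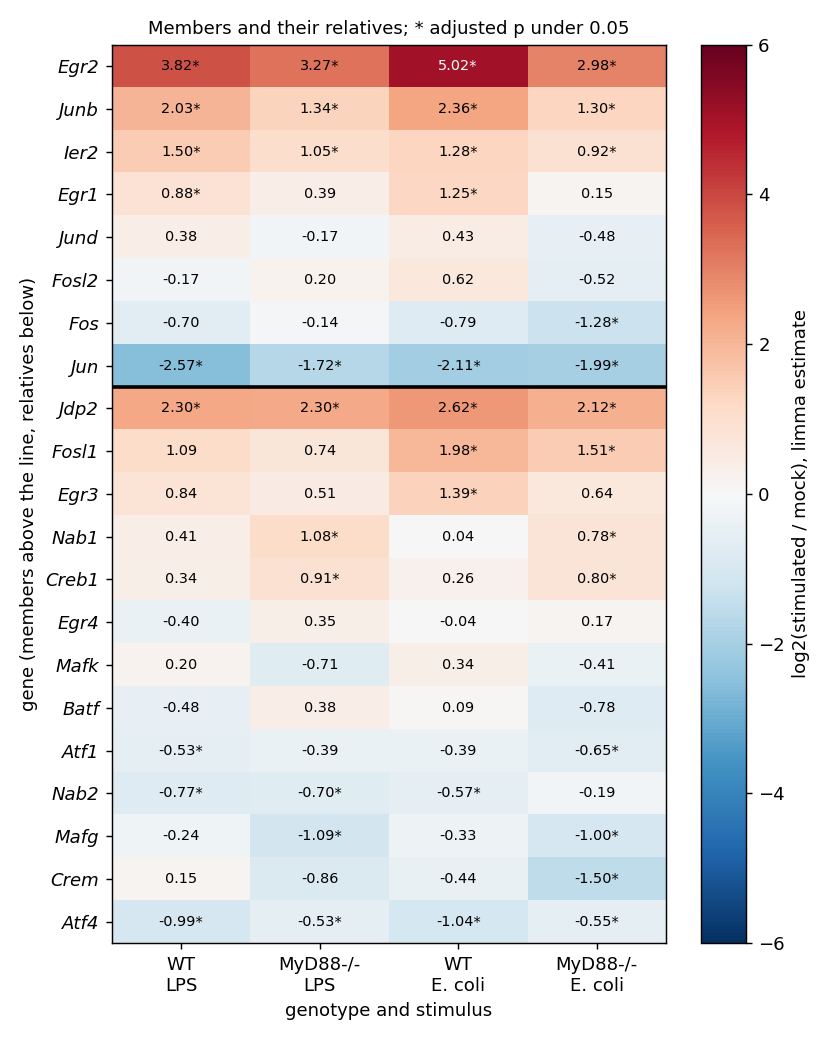
Colour and number give the limma estimate of the log2 ratio of stimulated over mock for each gene (rows, members above the black line and relatives below) in the 4 groups (columns), with a star at an adjusted p under 0.05. Egr2, Junb, Ier2 and Jdp2 are starred as higher and Jun and Atf4 as lower in all 4 columns.

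Of 41 other immediate early genes listed, 21 were tested, and 12 rose and 4 fell in wild-type LPS, 8 and 4 in MyD88-/- LPS, 13 and 5 in wild-type E. coli, and 8 and 4 in MyD88-/- E. coli cells. Their medians were 0.88, 0.29, 1.19 and 0.45, and 17%, 9.98%, 21.2% and 10.8% of all tested probes were called in these groups. Irf1, a transcription factor of the interferon system, rose by 3.61 in wild-type LPS, 4.33 in MyD88-/- LPS and 4.23 in MyD88-/- E. coli cells. Gadd45b, a stress sensor, rose by 3.53 in wild-type LPS, 3.00 in MyD88-/- LPS and 4.34 in wild-type E. coli cells. Gem, a small GTPase of the Rad family, rose by 5.11 in wild-type and 3.06 in MyD88-/- cells given E. coli, and Rgs2, a brake on G protein signalling, fell to between -2.50 and -2.05 over the 4 groups. Klf4, a zinc finger factor, fell to -1.55 in wild-type LPS cells, Klf10, one induced by TGF-beta, to -1.48 in wild-type E. coli cells, and Rgs1, a relative of Rgs2, to -1.66 and -2.17 in MyD88-/- cells given LPS and E. coli. Between genotypes 1 was lower and 2 higher for LPS and 3 were lower and 2 higher for E. coli, by limma. Of all tested probes 0.287% were called between genotypes for LPS and 0.751% for E. coli. For E. coli the lower ones were the growth regulator Myc at -2.86 ± 0.61 (adjusted p = 0.0405), Plk2, a polo-like kinase, at -2.01 and Rgs1 at -1.66, and the higher ones Klf10 at 1.82 and the kinase gene Sgk1 at 1.44. For LPS the differences were -1.67 for Plk2, 1.62 for Klf10 and 1.29 for Sgk1.

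Likeness to other genes was described over the 16 mouse-level ratios, which share their arrays and groups, among 4698 named probes with a full set of values. Junb was closest to Plaur (r = 0.93), the urokinase receptor, to Il1rn (0.93), the interleukin 1 receptor antagonist, and to Noct (0.92), a deadenylase relative. Egr2 was closest to Il1b (0.88), Sbds (0.85) and Il1a (0.85), and Egr1 to Saa2 (0.87), Rpl39l (0.87) and Slc22a12 (0.85). The closest genes to Fos (probe 1202) and Jun were less alike, Ldha at 0.81 and Cyb561d2 at 0.75. Fosl2, Jund and Ier2 lacked a mouse value and were not compared.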

How the data were processed

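Per the labels' protocols, the authors read the spotted arrays with GenePix Pro and used BASE and GeneSpring for analysis. Each deposited value is a log2 ratio between the channels of 1 array; background correction, normalization, spot filter and direction are not given in the sources used here. All 31 columns were matched to samples, with 0 left unmapped.

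Of all values 4333 (1.63%) lay at the floor, log2 of 0.01, and were treated as missing. Both arrays of each mouse and stimulus were averaged, and probes with a value in at least 3 mice of every group were fitted with limma 3.58.1 in R 4.3.3 (1 coefficient per group, lmFit and eBayes, prior degrees of freedom 2.97). All p are 2-sided, and the fit was tested on simulated data. Calls are at an adjusted p under 0.05. A gene is represented by the tested probe with values on most arrays. Members, lists and tests were chosen with earlier results of these data known. All tested members are described; of each list the 2 largest called changes per direction and response, every called difference, and Egr3, chosen after its values were seen, were named, with values of some of these genes in further groups. Gene symbols come from the platform annotation, promoters from RefSeq. Figures were drawn with matplotlib 3.10.9.

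Mouse numbers are the same for both stimuli of a genotype, but the labels do not say that they are the same animals. Correlations of residuals at equal numbers ran from -0.06 to 0.14, and the equal number was the best match in 2 of 8 cases, so the fit used no block; the block was an alternative.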

Additional observations from a re-analysis of the deposited data

Results flagged for a closer look

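The E. coli response of Junb differed between the genotypes by a test of the difference itself, at -1.06 on the log2 scale. All 4 MyD88-/- mice lay below all 4 wild-type mice. The call was lost on unswapped arrays alone, with arrays centred and scaled, and with only its groups in the fit. The genotype difference for E. coli minus that for LPS was -0.36 ± 0.25 for Junb and was not called.

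The mouse values of Fosl2 had opposite signs in the genotypes with E. coli, with a difference of means of -1.14. All 4 wild-type values were above 0 and all 3 MyD88-/- values below, but the limma difference did not pass (adjusted p = 0.238), and the wild-type mean turns to -0.24 when a value at the floor is kept. No mouse stood apart by Dixon's criterion in the 30 groups of 4 mouse values that were checked. With 4 values this criterion can find only an extreme mouse, and calls of Fos, Ier2, Egr1 and Jund changed on leaving out 1 mouse.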

How the results depend on the processing

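Of 1276 recomputed values of the 8 tested members, 1245 kept their side of the threshold, 17 lost and 14 gained a call, and 0 called values turned sign. Counts of members called moved as follows. On dye-swapped arrays alone, where Jun and Ier2 had too few values to be fitted, they were 2 for wild-type LPS, 2 for MyD88-/- LPS, 3 for wild-type E. coli and 3 for MyD88-/- E. coli, against 5, 4, 5 and 5. With the group alone in the fit, wild-type LPS had 3, as Egr1 (adjusted p = 0.0568) and Ier2 (0.0538) were lost, and Jun (0.0791) and Fos (0.0721) lost their calls in MyD88-/- cells given LPS and E. coli. For the E. coli genotype difference the count of 1 became 2 with values in all 4 mice required, 3 with all arrays, a dye term and mice as a random block, 3 with adjustment over probes called in the wild-type response, and 0 on unswapped arrays alone or with only its groups in the fit; leaving out 1 mouse gave 1 to 2. Its Junb call was also lost with arrays centred and scaled (-0.89, adjusted p = 0.0706), when Egr1 passed in its place (0.0485); unswapped arrays gave Junb -0.81 (0.148) and the groups alone 0.0863. For the LPS difference the count of 0 became 1 with the same adjustment over probes of the wild-type response (66 of 1247 probes called). That set of probes was chosen with wild-type values that also enter the difference, so these gained calls support nothing. The cause was not tested, apart from fewer arrays or mice in some fits. With mouse number as a replicate block the counts for both stimulus differences and the interaction were 0, as without it. The number of mice, and missing values for Fosl2, Jund and Ier2, limit the rest.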

Other observations

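Of 30 genes listed as kinases and factors upstream of the members, 14 were tested, and messages of this layer mostly did not pass. Mapkapk2, the kinase downstream of p38 that stabilises inflammatory messages, rose in all 4 groups, by 1.38 ± 0.25 in wild-type LPS (adjusted p = 0.00127 by limma), 1.10 in MyD88-/- LPS, 1.03 in wild-type E. coli and 1.34 in MyD88-/- E. coli cells. Elk3, a cofactor of serum response factor, fell in wild-type E. coli cells, to -1.45 ± 0.32 (adjusted p = 0.00424). No other gene of the list was called in a response, and none between genotypes or stimuli. Of all tested probes 9.98% to 21.2% were called in a response.

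Of 8 macrophage markers on the array 6 were tested, and their median log2 ratio lay between -0.26 and -0.14 in the 4 responses. Of these 2 were called lower in wild-type LPS, 1 in MyD88-/- LPS and 1 in wild-type E. coli cells. In MyD88-/- E. coli cells 1 was called higher, and no macrophage marker was called between genotypes. Over all tested probes 9.98% to 21.2% were called in a response. Markers of other cell types were little measured. Of 8 neutrophil markers on the array 3 were tested, of 5 B cell markers 3, of 6 T cell markers 1, of 6 stromal markers 1, of 4 dendritic cell markers 1 and of 3 erythroid markers 1. In the responses the stromal marker was called higher in wild-type E. coli cells (0.66), the dendritic cell marker higher in wild-type LPS cells (0.70), and 1 B cell marker lower in MyD88-/- LPS cells. Between genotypes none of these was called for either stimulus. The genotype difference of the 3 B cell markers had a median of -0.51 for LPS (-1.34 to -0.34). For E. coli the median was -0.47 (-0.80 to 0.24). The difference for LPS and E. coli was -0.73 and 0.44 for the dendritic cell marker, and -0.34 and -0.59 for the stromal marker. It was 0.16 and 0.17 for the T cell marker, and 0.32 and 0.01 for the erythroid marker. The neutrophil markers had medians of -0.02 and -0.27. The part of any of these cells in the lower Junb ratios was not tested.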
